A study of Mus musculus with 2 samples.

Results

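The genes described here encode 44 collagens and other components of the extracellular matrix, taken by name from the 17790 genes of the deposited table, in which all 44 were present. They comprise 5 chains of fibrillar collagens, 5 chains of network-forming collagens, 6 further collagen chains, 4 proteoglycans, 5 elastic fibre components, 3 glycoproteins, 10 laminin and nidogen chains, 3 lysyl oxidases and 3 tissue inhibitors of metalloproteinases (TIMPs). The cells came from microdissected lung adenocarcinoma tissue of C57BL/6 mice, which magnetic beads against CD45, a surface protein of leukocytes, had divided into a CD45-negative and a CD45-positive fraction. Each fraction was represented by 1 droplet library of 3′ transcript ends, with 3957 cells and 40873786 UMI (unique molecular identifiers, each marking 1 captured transcript) for the CD45-negative fraction and 11432 cells and 47477407 UMI for the CD45-positive one. The median depth was 7710 and 3376 UMI per cell. The cell names carry the word LucOS, and what it stands for, the genotype of the tumours, treatment, stage and age, and the number of animals were found in no source used here.

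The extracellular matrix is the protein scaffold between and beneath cells. In the lung, fibroblasts of the interstitium lay down fibrillar collagens and elastic fibres, which are crosslinked by lysyl oxidases, while epithelium and endothelium share a basement membrane of collagen IV, laminins, nidogens and the proteoglycan perlecan. TIMPs inhibit the proteases that degrade this scaffold.

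Levels are given as CPM, the UMI of a gene per 1000000 UMI summed over the cells of a group, with exact Poisson intervals. Ratios carry exact conditional-binomial intervals and shares exact Clopper-Pearson intervals, all at 95% and all for counting error only. With 1 library per fraction there was no replicate, no difference could be tested against the spread between samples, and a gene is counted as higher or lower where its CPM differed by at least 2-fold. Because a UMI marks a 3′ end, CPM values were not divided by transcript length, and levels are compared between groups for 1 gene, not between genes.

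The authors' 7 cell classes were used, and the Endothelial class was divided by 2 marker sums that contain none of the 44 genes. Cells with at least 4 UMI of Inmt, Pdgfra and Tcf21 together, genes known from lung fibroblasts, are called Inmt-set cells (82 cells in the CD45-negative library). Cells with at least 3 UMI of Pdgfrb, Cox4i2 and Higd1b together, genes known from pericytes, are called Pdgfrb-set cells (270 cells). A further 94 cells that passed both limits are kept apart as double-set cells, and 803 passed neither and are called the remaining endothelial cells. The names fibroblast and pericyte are not used for the split groups, because all 3 carried endothelial transcripts at levels near those of the remaining cells. Pecam1, an endothelial adhesion molecule, stood at 809.7, 951 and 765 CPM in the Inmt-set, Pdgfrb-set and double-set cells and at 1086 CPM in the remaining cells. All 8 listed endothelial markers were detected in each group, with a summed level of 9222 to 11407 CPM in the 3 split groups against 12496 CPM in the remaining cells. Only 7, 3 and 2 cells of the Inmt-set, Pdgfrb-set and double-set groups had fewer than 3 UMI of Pecam1, Cdh5 and Cldn5 together. Whether such barcodes hold 1 cell or several was not tested, and no doublets were removed.

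The class deposited as Fibroblast (356 cells) went against its label as well. It carried Msln, a surface protein of mesothelium, at 3633 CPM. The 7 listed mesothelial markers summed to 9401 CPM in it, against 1122 CPM in the class deposited as AT1, the next highest group. All 7 were detected, as they also were in other groups, among them the AT2 class. The fibroblast receptor gene Pdgfra stood at 0.584 CPM. Of 8 listed fibroblast markers 7 were detected, with a sum of 134 CPM and the highest gene at 104 CPM. That sum was 116 CPM in the remaining endothelial cells and 4243 CPM in the Inmt-set cells, which were chosen partly by the same genes. The class is called the Fibroblast class (mesothelial-like) here. The class deposited as AT1 (285 cells), named for the flat cells of the alveolus, went against its label too. Ager, the defining AT1 gene, stood at 302 CPM in it and at 1614 CPM in the AT2 class, and the 7 listed AT1 markers, all detected in both, summed to 1446 and 3176 CPM. It is called the AT1 class without reading AT1 identity into it. The AT2 class (1677 cells), named for the surfactant-producing cells, had summed AT2 markers of 160798 CPM, against 9981 CPM in the AT1 class. The remaining classes were Ciliated (108), Immune (108) and Erythrocyte (174) cells. In the CD45-positive library, 24.8 to 37.9% of the cells in the non-immune groups had a UMI of Ptprc, which encodes CD45, against 0.575 to 2.13% in the CD45-negative library. Immune cells had one in 61.6% and 66.7% of cells, at median depths of 3198 and 7834 UMI, and 57 barcodes occurred in both libraries. Levels below are from the CD45-negative library unless the other is named.

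The matrix genes together took the largest part of the transcripts in the Fibroblast class (mesothelial-like), where they made up 1.52% (1.51 to 1.53%) of all UMI. Their share was 0.767% (0.750 to 0.784%) in the double-set cells, 0.762% (0.741 to 0.783%) in the Inmt-set cells, 0.491% (0.482 to 0.500%) in the Pdgfrb-set cells and 0.379% (0.374 to 0.384%) in the remaining endothelial cells. The intervals of the double-set and Inmt-set cells overlapped, and those of the other neighbours in this order did not. The AT1 and AT2 classes had 0.149% (0.146 to 0.153%) and 0.146% (0.144 to 0.147%), and Immune, Ciliated and Erythrocyte cells lay between 0.0453 and 0.0651%. The CD45-positive library gave the same groups the highest shares, 1.18% (1.16 to 1.20%) in the Fibroblast class, 0.585% (0.558 to 0.614%) in the double-set, 0.553% (0.532 to 0.576%) in the Inmt-set and 0.478% (0.467 to 0.491%) in the Pdgfrb-set cells.

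**Figure D1:**
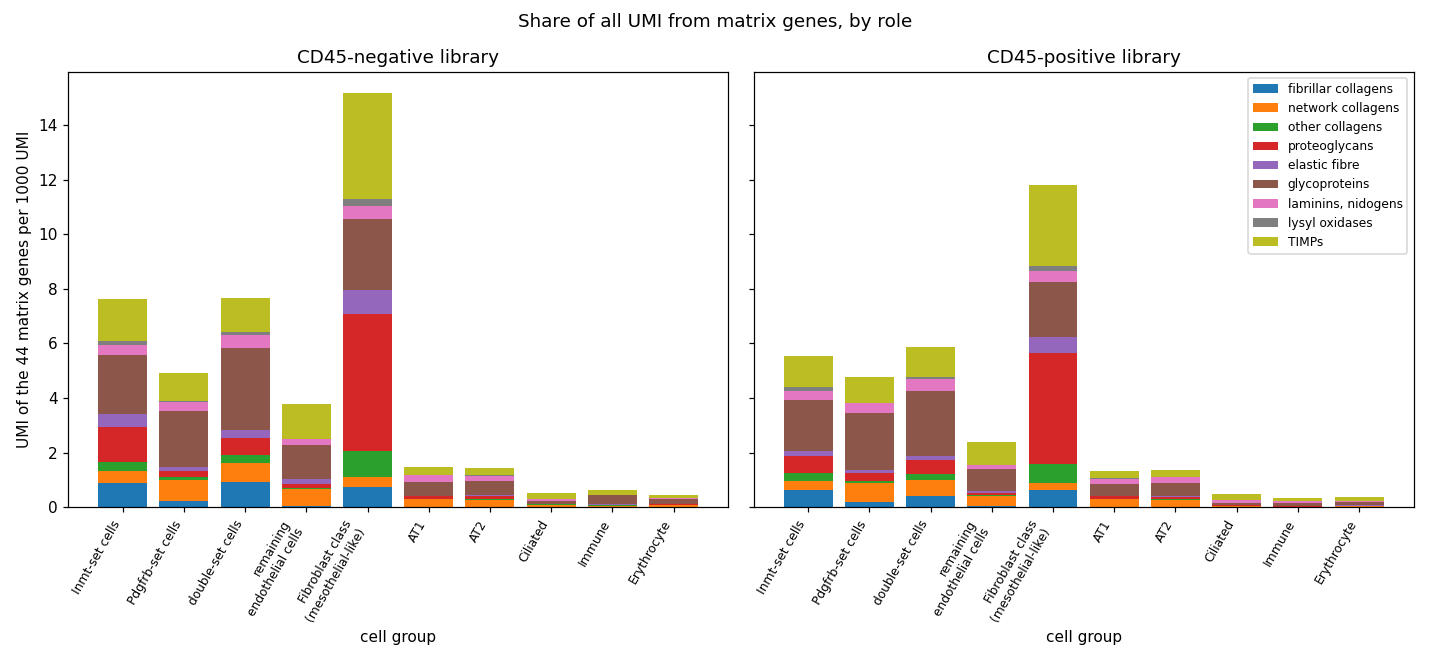
UMI of the 44 matrix genes per 1000 UMI (vertical axis) in each of the 10 cell groups (horizontal axis), stacked by role, with 1 panel per library. Proteoglycans and TIMPs make up most of the bar of the Fibroblast class (mesothelial-like), at 5.01 and 3.90 per 1000 UMI in the CD45-negative library.

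The make-up of the share differed between the groups. Fibrillar collagens contributed 0.921 and 0.889 UMI per 1000 in the double-set and Inmt-set cells, 0.753 in the Fibroblast class, 0.247 in the Pdgfrb-set cells and 0.0579 in the remaining endothelial cells. Network-forming collagens were at their highest in the Pdgfrb-set cells, with 0.771 per 1000, and stood at 0.292 and 0.255 in the AT1 and AT2 classes, where they and the laminins and nidogens (0.235 and 0.202 per 1000) outweighed the fibrillar chains (under 0.01 per 1000). Proteoglycans reached 5.01 per 1000 in the Fibroblast class and 1.27 in the Inmt-set cells.

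Of the 44 genes, 41 had at least 100 UMI in the CD45-negative library and were ranked over the 10 groups. Lum (27 UMI), Lama2 (89 UMI) and Nid2 (88 UMI) fell short and are given by their values. The Fibroblast class held the highest level of 21 of the 41, against 13.3% of the 11679 genes with as many UMI in the whole table. Double-set cells held the highest level of 8 (background 12.2%), Inmt-set cells of 5 (12.5%, and 8 to 11 with other averaging, thinning, a stricter split or the double-set cells merged in), Pdgfrb-set cells of 3 (11.5%), and the remaining endothelial cells (9.81%), AT1 (11.7%), AT2 (5.03%) and Immune cells (11.1%) of 1 each. Ciliated (12.6%) and Erythrocyte cells (0.308%) held the highest level of 0. The same group was highest in the CD45-positive library for 35 of the 41. For 15 of the 41 the interval of the ratio of the highest to the next group held 1, so that their first place was within counting error. For 12 the highest group was at least 2-fold above the next, and 11 of these 12 were highest in the Fibroblast class. The share of all genes so placed was not computed, nor was that of all genes with the same highest group in both libraries. Neither count is therefore read as particular to the matrix genes. The Endothelial class enters this ranking as 4 groups, which can be next to each other, and the Fibroblast class as 1.

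**Figure D2:**
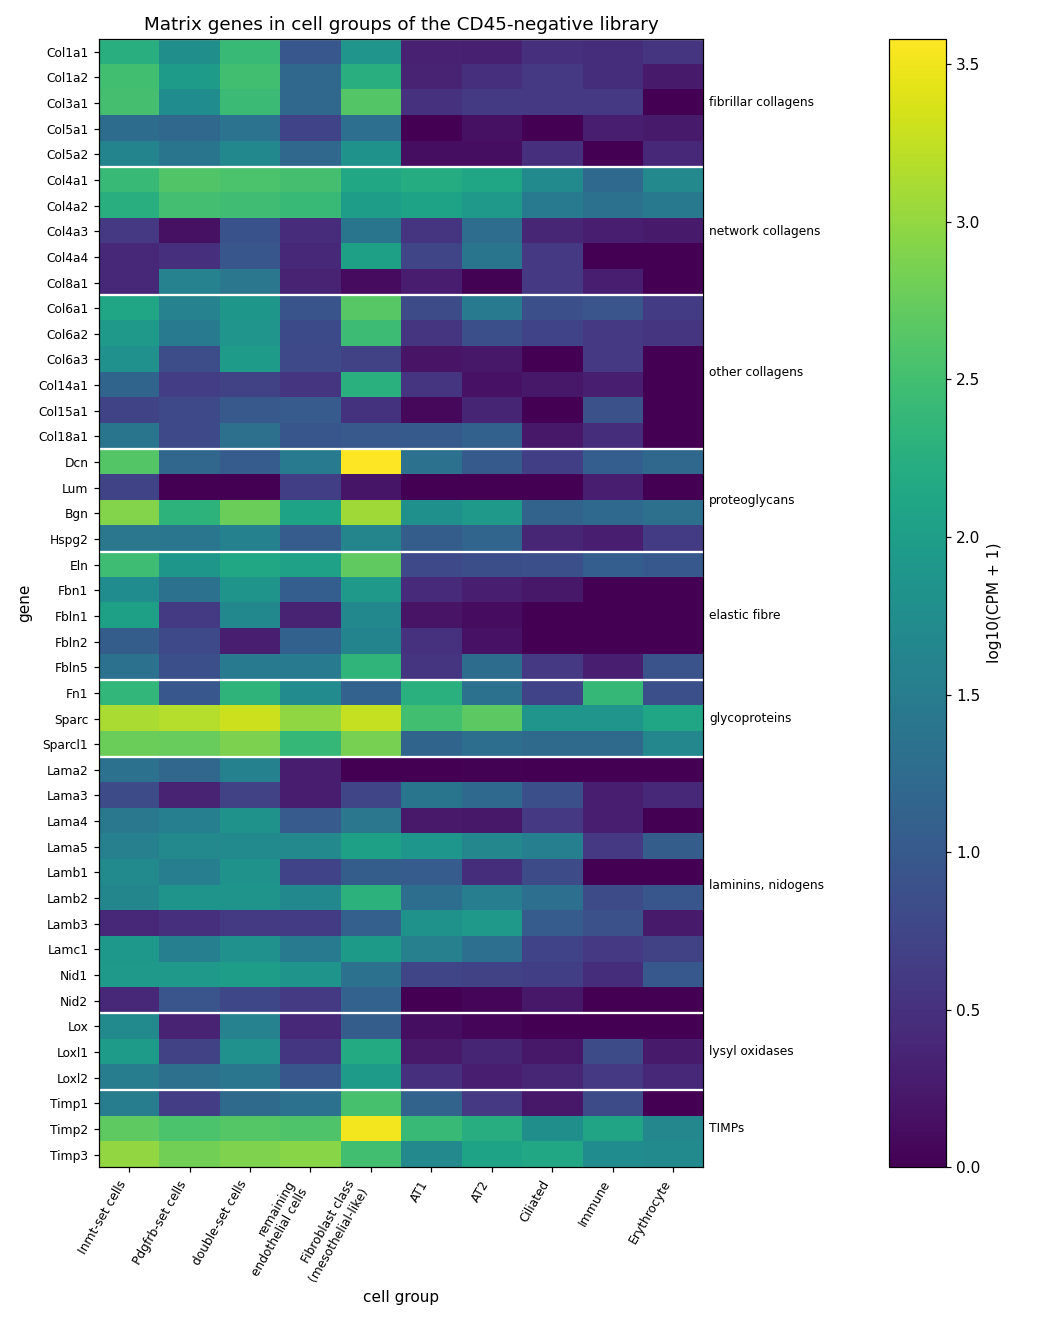
Level of each matrix gene (rows, ordered by role) in each cell group (columns) of the CD45-negative library, coloured by log10(CPM + 1). Fibrillar collagens are brightest in the Inmt-set, double-set and Fibroblast columns, Col4a1 and Col4a2 in the endothelial columns, and Lamb3 in the AT1 and AT2 columns.

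The fibrillar collagens, which form the tensile fibres of connective tissue, were at least 2-fold higher in the Inmt-set and double-set cells than in the remaining endothelial cells for all 5 chains, and in the Pdgfrb-set cells for 4, with Col5a2 at 1.58-fold (1.11 to 2.24). Col3a1, the chain of type III collagen, stood at 413 CPM (392 to 435) in the Fibroblast class, 339 CPM (296 to 385) in the Inmt-set cells, 273 CPM (241 to 307) in the double-set cells, 54.8 CPM in the Pdgfrb-set cells and 15.5 CPM in the remaining endothelial cells. Col1a2, a chain of type I collagen, was level between the Inmt-set and double-set cells (318 CPM, 277 to 363, and 315 CPM, 281 to 352), with 181 CPM in the Fibroblast class, 93.9 in the Pdgfrb-set cells and 14.8 in the remaining cells. Col1a1, the other type I chain, reached 265 CPM (234 to 299) in the double-set cells and 175 CPM (145 to 209.6) in the Inmt-set cells, but 72.4 CPM in the Fibroblast class. The AT1, AT2 and Ciliated classes had at most 3.02 CPM of any of the 3 genes. In the CD45-positive library the Inmt-set cells were highest for Col1a1 and Col1a2 (124 and 237 CPM) and the Fibroblast class for Col3a1 (358 CPM).

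A few cells carried much of these collagen counts. In the double-set cells 2 cells held 133 and 26 of the 263 Col1a1 UMI, and without the 5 highest cells the level was 94.5 CPM. In the Inmt-set cells the 5 highest cells held 60.4% of the Col3a1 UMI, and the level without them was 142 CPM. Other cells also held them. After thinning every cell to 4000 UMI, which left out no cell, 34.1% of the Inmt-set, 30.9% of the double-set, 13.5% of the Fibroblast and 9.63% of the Pdgfrb-set cells had a Col1a1 UMI, against 1.12% of the remaining endothelial cells and 0 of the 174 Erythrocyte cells, the group taken as background, where a count of 0 allows up to 3 cells, or 1.72%. Unthinned, the shares were 42.7%, 57.4%, 21.1%, 18.1%, 1.99% and 1.72%, at median depths of 6966, 9455, 8026, 7494, 6497 and 6570.5 UMI. Of the type V chains, which join type I fibres, Col5a1 reached 22.2 CPM (13.9 to 33.5) in the double-set cells and Col5a2 66.8 CPM (58.5 to 76.1) in the Fibroblast class.

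Collagen IV is the sheet-forming collagen of basement membranes, and its chains α1 and α2 are encoded by Col4a1 and Col4a2, which lie head to head on chromosome 8 (chr8:11198423-11312826 on the minus strand and chr8:11312805-11449287 on the plus strand, GENCODE annotation of GRCm38). Their annotated starts lie 21 bases apart, so that the genes overlap at their 5′ ends. The α3 and α4 chains of specialised membranes are encoded by a second such pair, Col4a3 and Col4a4 on chromosome 1, whose starts lie 72 bases apart. The windows from 250 bases before to 50 bases after the RefSeq start (GRCm38.p6) are shown, 5′ to 3′ on the gene's own strand, because the members of each pair share the stretch from which both are transcribed. Capitals mark the 78 bases common to the Col4a1 and Col4a2 windows, which read as reverse complements, and in the Col4a4 window the 71 bases that lie between the Col4a4 and Col4a3 starts.
Col4a1, chr8:11312777-11313076, minus strand: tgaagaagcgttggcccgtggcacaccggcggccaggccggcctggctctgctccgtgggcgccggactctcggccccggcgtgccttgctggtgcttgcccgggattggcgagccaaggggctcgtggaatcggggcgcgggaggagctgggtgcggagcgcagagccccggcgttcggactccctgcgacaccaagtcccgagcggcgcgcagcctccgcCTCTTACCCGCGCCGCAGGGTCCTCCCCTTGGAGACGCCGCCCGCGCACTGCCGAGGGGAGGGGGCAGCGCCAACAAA
Col4a2, chr8:11312555-11312854, plus strand: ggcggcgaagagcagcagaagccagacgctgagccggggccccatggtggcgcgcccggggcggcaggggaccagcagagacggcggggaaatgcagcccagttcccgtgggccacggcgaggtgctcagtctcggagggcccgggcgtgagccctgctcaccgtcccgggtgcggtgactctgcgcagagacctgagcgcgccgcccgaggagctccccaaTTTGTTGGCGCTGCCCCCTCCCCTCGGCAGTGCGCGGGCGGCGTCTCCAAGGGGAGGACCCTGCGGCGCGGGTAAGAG
Col4a4, chr1:82586800-82587099, minus strand: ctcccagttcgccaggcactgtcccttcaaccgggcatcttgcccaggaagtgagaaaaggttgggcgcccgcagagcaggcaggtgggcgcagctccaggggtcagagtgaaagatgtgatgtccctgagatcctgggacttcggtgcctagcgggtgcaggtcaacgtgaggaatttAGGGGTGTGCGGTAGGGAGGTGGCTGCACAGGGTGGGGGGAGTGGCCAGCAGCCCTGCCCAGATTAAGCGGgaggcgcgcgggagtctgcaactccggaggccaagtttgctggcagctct
The 3 windows had a GC content of 74.0%, 73.7% and 63.3%, against a median of 52.7% over all 32851 windows of the table. The letters GGGCGG, searched on both strands, were present in the Col4a1 and Col4a2 windows, within the bases they share, and not in the Col4a4 window. They occurred in 35.7% of all windows and in 20 of the 28 matrix genes that had a window. CCAAT was found once in the Col4a1 window, outside the shared bases, once in the Col4a2 window, ending on the first shared base, and in 37.4% of all windows and 9 of the 28 genes. TATAAA was in none of the 3, in 13.6% of all windows and in 1 of the 28 genes.

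The 2 pairs had different cellular distributions. Col4a1 was high throughout the Endothelial class, at 410.3 CPM (385 to 437) in the Pdgfrb-set, 364 in the double-set, 338 in the remaining endothelial and 264 CPM in the Inmt-set cells, and lower in the AT1 class (163 CPM), Fibroblast class (138 CPM) and AT2 cells (129.6 CPM). Col4a2 followed the same order over these groups, from 320.3 CPM (298 to 344) in the Pdgfrb-set cells to 83.4 CPM in AT2 cells. The ratio of Col4a1 to Col4a2 UMI stayed between 0.762 and 1.74 over all 10 groups, while the level of Col4a1 varied 26.4-fold. In the CD45-positive library the ratio lay between 0.864 and 2.5 over the 9 groups with enough UMI. It also differed between the libraries within a group. In the remaining endothelial cells it was 1.30 (1.21 to 1.39) in the CD45-negative and 1.02 (0.946 to 1.10) in the CD45-positive library. The annotated exons of the 2 genes overlap on opposite strands, and no source used here says whether the counting used the strand.

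Col4a3 and Col4a4, by contrast, were low in the 4 endothelial groups, at 0.435 to 7.05 and 1.47 to 8.06 CPM. Col4a4 stood at 109 CPM (97.8 to 120.2) in the Fibroblast class and 23.9 CPM (21.7 to 26.3) in AT2 cells, and at 4.66 CPM in the AT1 class. Col4a3 stood at 23.6 CPM (18.8 to 29.4), 17.8 CPM (15.9 to 19.8) and 2.61 CPM in the same classes. The ratio of Col4a3 to Col4a4 UMI was 0.218 (0.169 to 0.278) in the Fibroblast class and 0.743 (0.643 to 0.859) in AT2 cells, so that the intervals of the 2 classes did not overlap. In the CD45-positive library it was 0.193 (0.105 to 0.332) and 0.558 (0.440 to 0.705). The balance within this pair thus differed between the 2 classes in both libraries. Col8a1, a network collagen of vessel walls, was seen mainly in the Pdgfrb-set cells (37.8 CPM, 30.3 to 46.6) and double-set cells (25.2 CPM), with 1 UMI in the Inmt-set cells and 1.19 CPM in the remaining endothelial cells. The CD45-positive library gave 44.5 CPM in the Pdgfrb-set and 0 UMI in the Inmt-set cells.

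**Figure D3:**
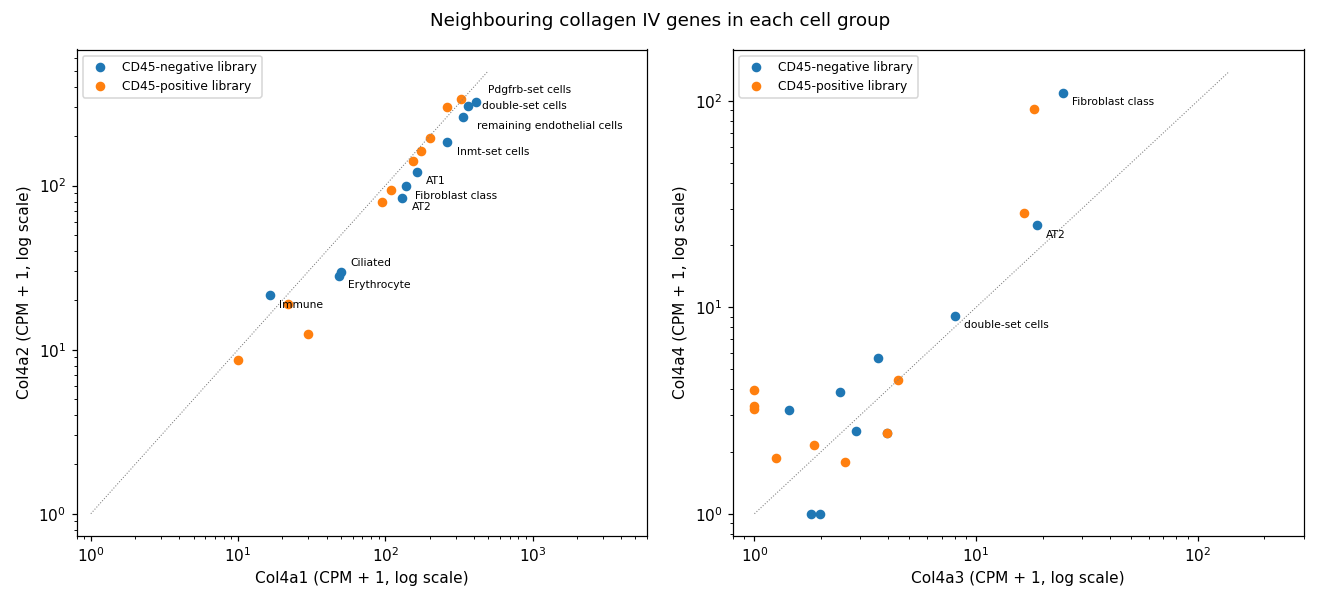
Levels of Col4a1 against Col4a2 (left) and of Col4a3 against Col4a4 (right), as CPM + 1 on log axes, with 1 point per cell group and library and a dotted line at equal values. The first pair lies along the line, with the endothelial groups at the top, and in the second pair the Fibroblast class and AT2 cells stand apart from the other groups.

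The other collagens had several leading groups. Col6a1 and Col6a2, chains of the microfibril-forming collagen VI, were highest in the Fibroblast class at 441 CPM (419 to 463) and 283 CPM (265 to 301), which was 3.40-fold (2.74 to 4.27) and 3.31-fold (2.54 to 4.39) above the Inmt-set cells. Their partner chain Col6a3 had the opposite order, with 94.7 CPM (76.5 to 116) in the double-set cells, 64.8 CPM (47.1 to 87) in the Inmt-set cells and 4.09 CPM (2.23 to 6.86) in the Fibroblast class. It was 15.9-fold (8.53 to 31.3) higher in the Inmt-set cells than in the Fibroblast class, and the CD45-positive library gave 86.4 against 6.50 CPM. Col6a1 was also present in AT2 cells (29.1 CPM, 26.7 to 31.7), in which Col6a2 stood at 6.41 and Col6a3 at 0.700 CPM. Col14a1, a collagen that associates with fibrils, stood at 186 CPM (172 to 202) in the Fibroblast class, 14.1-fold (7.37 to 30.9) above the Inmt-set cells. Col15a1, of vascular basement membranes, was low throughout, with 9.68 CPM (7.34 to 12.5) in the remaining endothelial cells, 9.06 CPM in the double-set and 6.81 CPM in Immune cells. Col18a1, the precursor of endostatin, stood at 23.6 CPM in the Inmt-set, 20.1 in the double-set, 11.9 in AT2 and 5.22 in the Pdgfrb-set cells.

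Among the proteoglycans, Dcn and Bgn, which encode the small collagen-binding proteins decorin and biglycan, differed in their reach. Dcn stood at 3808 CPM (3743 to 3874) in the Fibroblast class, 9.24-fold (8.21 to 10.4) above the Inmt-set cells (412 CPM, 365 to 463). In the Inmt-set cells 2 cells held 130 and 73 of the 280 Dcn UMI, and without the 5 highest cells the level was 21.6 CPM. In the double-set and Pdgfrb-set cells Dcn stood at 10.1 and 14.3 CPM, near the 15.2 CPM of Erythrocyte cells. Bgn was high in more groups, at 1164 CPM (1128 to 1201) in the Fibroblast class, 829 CPM (762 to 900.2) in the Inmt-set, 596 CPM (549 to 646) in the double-set and 203 CPM (185 to 222) in the Pdgfrb-set cells, against 119 CPM in the remaining endothelial cells and 82.3 CPM in AT2 cells. Lum, encoding the related lumican, had 27 UMI in the CD45-negative library, 20 of them in 1 cell of the remaining endothelial cells, and 0 UMI in the CD45-positive library. Hspg2, which encodes perlecan, reached 41.7 CPM (35.2 to 49.2) in the Fibroblast class and 36.3 CPM (25.4 to 50.2) in the double-set cells, and was present at 13.8 CPM in AT2 cells.

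Elastic fibre genes were led by the Fibroblast class in 4 of 5 cases. Eln, which encodes elastin, stood at 504 CPM (481 to 529) there, at 294 CPM (255 to 338) in the Inmt-set cells, 140.0 in the double-set, 109 in the remaining endothelial and 76.5 CPM in the Pdgfrb-set cells, and at 5.22 to 10.7 CPM elsewhere. In the Inmt-set cells the 5 highest cells held 75% of the Eln UMI. Fbn1, the microfibril protein fibrillin, was at 83.5 CPM (74.1 to 93.7) in the Fibroblast class and 70.5 CPM (54.9 to 89.1) in the double-set cells. The fibulins, which bridge elastic fibres and cells, had separate patterns. Fbln5 was 7.49-fold (5.17 to 11.3) higher in the Fibroblast class (219 CPM) than in the next group, and Fbln2 3.29-fold (2.45 to 4.45) higher (39.7 CPM). Fbln1 was highest in the Inmt-set cells (106 CPM, 82.9 to 133), 2.28-fold (1.70 to 3.04) above the Fibroblast class, with 1.19 CPM in the remaining endothelial cells.

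Of the glycoproteins, Fn1 (fibronectin, an adhesive protein of wound and tumour matrix) was high in 4 groups. It stood at 240.2 CPM (211 to 272) in Immune cells, 234 CPM (199 to 273) in the Inmt-set cells, 209 CPM (182 to 239.9) in the double-set cells and 189 CPM (178 to 201) in the AT1 class, and at 12.5 CPM in the Fibroblast class and 8.26 CPM in the Pdgfrb-set cells. The intervals of the first 3 of these overlapped. The 52.3 CPM of the remaining endothelial cells came from few cells, since 182 and 87 of the 308 UMI lay in 2 cells, and without the 5 highest cells the level was 4.29 CPM. Sparc, a collagen-binding protein, had its highest level in the double-set cells (2053 CPM, 1965 to 2144), followed by the Fibroblast class (1873 CPM), the Pdgfrb-set (1501 CPM), Inmt-set (1325 CPM) and remaining endothelial cells (958 CPM), and AT2 cells held 479.8 CPM. Its relative Sparcl1 had a similar order, with 743 CPM (690.5 to 799) in the double-set cells and 245 CPM in the remaining endothelial cells, but was low in AT2 cells (18.4 CPM).

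The laminin chains, which assemble as heterotrimers of an α, a β and a γ chain, differed between the alveolar classes and the endothelial groups. Lama3 was highest in the AT1 class (23.9 CPM, 19.9 to 28.4) and AT2 cells (15.7 CPM, 13.9 to 17.6), and Lamb3, the β chain that pairs with it, in AT2 cells (83.2 CPM, 79.1 to 87.4) and the AT1 class (66 CPM, 59.3 to 73.3). In the 4 endothelial groups Lama3 stood at 0.850 to 5.89 and Lamb3 at 1.47 to 3.40 CPM. Lama4, the vascular α chain, reached 67.5 CPM (52.3 to 85.7) in the double-set and 34.3 CPM (27.2 to 42.8) in the Pdgfrb-set cells, against 9.51 CPM in the remaining endothelial and 0.700 CPM in AT2 cells. Lamb1 was likewise highest in the double-set cells (68.5 CPM, 53.2 to 86.8) and at 10.1 CPM in the AT1 class. Lama5, the widespread α chain, reached 109 CPM (97.8 to 120.2) in the Fibroblast class and 75.9 CPM (68.7 to 83.7) in the AT1 class, and lay between 35.3 and 49.3 CPM in the 4 endothelial groups. Lamb2 stood at 200.2 CPM (185 to 216) in the Fibroblast class, 2.80-fold (2.19 to 3.63) above the double-set cells. Lamc1, the common γ chain, ranged from 87.8 CPM in the Fibroblast class to 19.6 CPM in AT2 cells. Nid1, the linker of laminin and collagen IV, was similar in the 4 endothelial groups (71.0 to 97.7 CPM) and 20.4 CPM in the Fibroblast class. Lama2 was highest in the double-set (36.3 CPM, 25.4 to 50.2) and Inmt-set cells (20.6 CPM). It was also at least 2-fold higher in the Pdgfrb-set than in the remaining endothelial cells. Nid2 was highest in the Fibroblast class (12.3 CPM), followed by the Pdgfrb-set cells (7.82 CPM).

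The lysyl oxidases, which crosslink collagen and elastin, were low in the remaining endothelial cells. Lox was highest in the Inmt-set cells (51.5 CPM, 35.9 to 71.7) and double-set cells (38.3 CPM, 27.1 to 52.5), with 10.5 CPM in the Fibroblast class and 1.30 CPM in the Pdgfrb-set cells. Loxl1, the enzyme of elastic fibres, stood at 155 CPM (142 to 168) in the Fibroblast class and 95.7 CPM (73.9 to 122) in the Inmt-set cells, and Loxl2 at 95.4 CPM (85.4 to 106) and 30.9 CPM (19.1 to 47.3). In the remaining endothelial cells Lox, Loxl1 and Loxl2 lay at 1.53 to 7.99 CPM.

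The 3 TIMPs had different leading groups. Timp1 and Timp2 were highest in the Fibroblast class, at 339.7 CPM (320.5 to 359.8) and 3249 CPM (3189 to 3310.0), 10.5-fold (6.89 to 16.8) and 6.63-fold (5.94 to 7.41) above the Inmt-set cells. Timp2 was found in every group, from 44.9 CPM in Erythrocyte to 490.2 CPM in the Inmt-set cells outside the Fibroblast class. Timp3, the TIMP that binds to the matrix, was high throughout the Endothelial class, at 992 CPM (919 to 1070.0) in the Inmt-set, 869 CPM (846 to 893) in the remaining endothelial, 775 in the double-set and 659 CPM in the Pdgfrb-set cells, against 313 CPM (294 to 332) in the Fibroblast class.

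Set against the Pdgfrb-set cells, the Inmt-set cells had at least 2-fold higher levels of 18 of the 35 matrix genes with at least 20 UMI in the pair, where 4.12% of all genes were so called, and a lower level of 1 (background 5.52%). The median log2 ratio was 1.21 over the matrix genes and -0.06 over all genes. The higher genes included Fn1 (28.3-fold, 17.6 to 48.3), Fbln1 (34.8-fold, 16.1 to 89.7), Lox (39.5-fold, 12.5 to 201), Loxl1 (24.5-fold, 12.1 to 55.9) and Col6a3 (10.6-fold, 5.73 to 21), and type I collagen with smaller ratios (Col1a1 2.92-fold, 2.27 to 3.76, Col1a2 3.39-fold, 2.79 to 4.11). The lower gene was Col8a1 (25.7-fold, 4.49 to 1026, on 1 UMI against 87). Of the 18, 16 could be compared in the CD45-positive library, in which all 16 were higher in the Inmt-set cells and 13 at least 2-fold. How often other genes called in the first library recurred was not computed. Over all 34 matrix genes measured in the CD45-positive library, 13 were at least 2-fold higher in the Inmt-set cells (background 4.15%). The lower genes there were Col8a1 and Col4a2 (background 6.66%).

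Set against the Fibroblast class, the Inmt-set cells were higher for 9 of 40 genes (background 16.7%) and lower for 15 (15.6%). The 9 were Col1a1 (2.42-fold, 1.93 to 3.02), Col6a3, Col18a1, Fbln1, Fn1 (18.7-fold, 13.2 to 26.8), Lamb1 (4.76-fold, 2.86 to 7.88), Nid1 (4.18-fold, 2.90 to 6.01), Lox (4.90-fold, 2.99 to 8.04) and Timp3 (3.17-fold, 2.88 to 3.50). Among the 15 were Dcn, Col14a1, Timp1, Timp2, Fbln5 (10.6-fold, 6.28 to 19.5) and Lamb2 (4.69-fold, 3.24 to 7.06). Of the 40 genes, 22.5% were higher and 37.5% lower, and the median log2 ratio was -0.56 against 0.11 over all genes.

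Compared with the remaining endothelial cells, 24 of 38 matrix genes were higher in the Inmt-set cells (background 6.11%) and 2 lower (5.93%), 24 of 40 higher in the double-set cells (7.47%) and 2 lower (3.97%), and 14 of 39 higher in the Pdgfrb-set cells (3.97%) and 6 lower (2.35%). Fbln1 (89.1-fold, 41.1 to 229.6), Loxl1 (35.2-fold, 20.1 to 65.2), Lox (33.7-fold, 15.9 to 79.7), Col3a1 (21.9-fold, 17.1 to 28.2) and Col1a2 (21.5-fold, 16.7 to 27.9) had the highest ratios in the Inmt-set cells, and Col8a1 (31.8-fold, 14.8 to 81.4), Lama2 (16.9-fold, 6.55 to 55.4), Lamb1 (7.88-fold, 4.96 to 12.9) and Col1a1 (7.20-fold, 5.17 to 10.2) in the Pdgfrb-set cells. The 6 lower genes of the Pdgfrb-set cells were Dcn, Lum, Fbln2, Fbln5, Fn1 and Timp1, of which Fbln5 was 1.59-fold (0.812 to 2.94) in the CD45-positive library, on the other side of 1. These 3 comparisons share the remaining endothelial cells as their denominator. All 5 listed erythroid markers were detected in each group, with summed levels of 10778 CPM in the Inmt-set, 5125 in the Pdgfrb-set, 6007 in the double-set and 2971 CPM in the remaining endothelial cells, and their part in the result was not tested. Of those cells, 21 without a subtype marker carried the smooth muscle genes Acta2 at 1592 CPM and Cnn1 at 340.3 CPM, and 275 of the 308 Fn1, 99 of the 125 Timp1 and 105 of the 173 Dcn UMI. For each of these 3 genes the 2 highest of the 21 cells held most of the UMI, at 269, 95 and 87. Against the Vwf, Car4 and Gpihbp1 cells alone, which leaves out these 21 cells and 9 with lymphatic markers, the Pdgfrb-set cells were lower for 1 of 36 genes, Fbln5 (background 1.92%), and higher for 16 (4.19%). By the same comparison the Inmt-set cells were higher for 25 of 37 genes (background 6.14%) and lower for 1 (5.54%), and the double-set cells higher for 25 of 38 (7.67%) and lower for 1 (3.73%). In the CD45-positive library, 24 of 37 genes were higher in the Inmt-set than in the remaining endothelial cells (background 7.97%) and 1 lower (6.48%), and 20 of 38 were higher in the Pdgfrb-set cells (5.3%) and 4 lower (4.14%).

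The cells just inside and just outside each limit of the split were taken from the whole Endothelial class, whatever their sum for the other set. At a sum of 4 UMI for the Inmt set (36 cells) the matrix genes took 0.808% of UMI, and at a sum of 3 (33 cells) 0.449%. At a sum of 3 UMI for the Pdgfrb set (49 cells) they took 0.352%, and at a sum of 2 (96 cells) 0.414%. Cells on either side of a limit can thus have passed the other limit, and the part of such cells in these shares was not tested.

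Within the remaining endothelial cells, subgroups were set in order by Vwf, a gene of larger vessels (148 cells with at least 4 UMI), by Car4, of the capillary type called aerocytes (378 cells with at least 3 UMI), and by Gpihbp1, of general capillaries (247 cells with at least 3 UMI). Of the 5 elastic fibre genes, Eln, Fbn1, Fbln2 and Fbln5 were higher in the Vwf cells, as was biglycan, and Fbln1 had 1 UMI there. Fbln5 stood at 103 CPM (85.2 to 123) in the Vwf cells, 2.44 CPM in the Car4 and 9.28 CPM in the Gpihbp1 cells, and was 20.9-fold (13.2 to 34.6) higher in the Vwf cells than in the 2 capillary subgroups together. Eln stood at 315 CPM (284 to 349), 46.8 and 68.1 CPM (5.78-fold, 4.91 to 6.82), and Bgn at 343 CPM (310.4 to 378), 36.3 and 39 CPM (9.20-fold, 7.66 to 11.1). In all, 10 of 29 genes were higher in the Vwf cells (background 4.09%) and 1 was lower (5.1%). The others were Fbln2 (8.95-fold, 4.96 to 16.8), Fbn1 (7.61-fold, 3.40 to 18.2), Lama4 (12-fold, 4.93 to 33.1), Col18a1 (4.70-fold, 2.36 to 9.48), Col5a2 (4.38-fold, 2.67 to 7.21), Fn1 (3.80-fold, 1.78 to 8.12) and Hspg2 (2.49-fold, 1.32 to 4.60), and the lower gene was Col6a1, on 1 UMI. Timp3 missed the limit at 1.91-fold (1.80 to 2.03). Col4a1 and Col4a2 were lower in the Vwf cells (237 against 369 CPM and 182 against 285 CPM), by less than 2-fold. All 6 listed smooth muscle markers were detected in the Vwf cells with a summed level of 183 CPM, against 30.0 CPM in the Car4 cells (Cnn1 at 0) and 25.4 CPM in the Gpihbp1 cells (Cnn1 and Lmod1 at 0), and their part in the result was not tested.

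The CD45-positive library (112 Vwf, 434 Car4 and 676 Gpihbp1 cells) had ratios of 20.1-fold (9.62 to 45.2) for Fbln5, 5.07-fold (3.95 to 6.47) for Eln, 4.89-fold (3.83 to 6.22) for Bgn and 5.68-fold (2.01 to 15.1) for Col5a2. Of the 10 genes 5 had enough UMI there, and the remaining one, Fn1, was at 0.974-fold (0.405 to 2.03). There 9 of 22 genes were higher in the Vwf cells (background 3.8%) and 1, Col3a1, lower (6.9%). Between the capillary subgroups, Timp2 was 2.29-fold (2.04 to 2.57) higher in the Car4 cells (511 CPM, 485 to 538, against 223 CPM, 201 to 248), the single gene of 21 called in that direction (background 3.97%), and 2.34-fold (2.11 to 2.61) higher in the CD45-positive library (1 of 20 genes, background 3.33%). Higher in the Gpihbp1 cells were 4 of the 21 (background 2.48%), namely Hspg2 (5.57-fold, 2.30 to 15.4), Fbln5 (3.80-fold, 1.46 to 11), Col15a1 (3.41-fold, 1.68 to 7.26) and Sparcl1 (2.15-fold, 1.91 to 2.41). For Sparcl1 the levels were 407 CPM (377 to 439.6) in the Gpihbp1 and 189.6 CPM (174 to 206) in the Car4 cells, and the ratio in the CD45-positive library was 1.43-fold (1.22 to 1.69), where 2 of 20 genes, Col15a1 and Timp1, passed 2-fold (background 2.11%). Sparc had the same direction in both libraries, with 1.85-fold (1.74 to 1.96) and 1.51-fold (1.40 to 1.62).

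**Figure D4:**
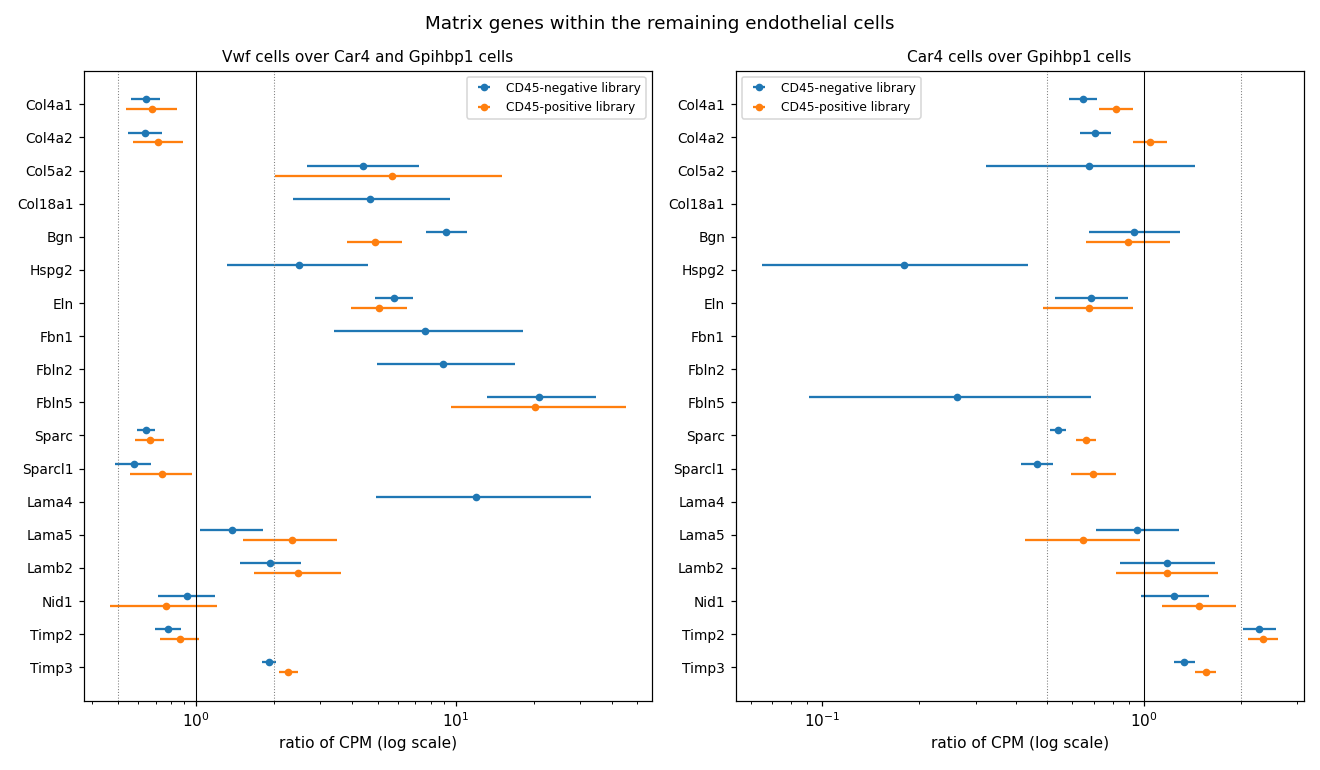
Ratio of CPM on a log axis for 18 matrix genes, Vwf cells over Car4 and Gpihbp1 cells (left) and Car4 over Gpihbp1 cells (right), with 95% counting intervals, in both libraries where the pair had at least 20 UMI. Dotted lines mark 2-fold. Fbln5, Bgn and Eln lie to the right of 2-fold in the left panel in both libraries, and Timp2 in the right panel.

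Between the alveolar classes, 7 of 34 genes were higher in the AT1 class than in AT2 cells (background 11.3%) and 7 lower (14.1%). The AT1 class had more Fn1 (189 CPM, 178 to 201, against 21.6 CPM, 19.5 to 23.8, 8.78-fold, 7.81 to 9.88), Lamb1 (5.19-fold, 3.34 to 8.15), Timp1 (4.36-fold, 3.01 to 6.35) and Dcn (2.20-fold, 1.72 to 2.81, 63.4% of it from 5 cells), and on few UMI Col14a1, Fbln2 and Loxl2. In both classes Dcn lay within 2-fold of its level in Erythrocyte cells, the background group. AT2 cells had more Fbln5 (17.3 CPM, 15.5 to 19.3, against 2.43 CPM, 7.13-fold, 4.11 to 13.5), Col4a3 (6.81-fold, 4.0 to 12.6), Col4a4 (5.13-fold, 3.43 to 8.01), Col6a1 (5.03-fold, 3.50 to 7.48), Timp3 (2.52-fold, 2.22 to 2.88), Col6a2 and Col15a1. The chains Lama3, Lama5 and Lamb3 differed by less than 2-fold.

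AT2 cells with at least 2 UMI of Cldn4, a claudin known from injured or transitional alveolar epithelium, numbered 173 of 1677 and were deeper, with a median of 15356 against 7869 UMI. In these cells 8 of 30 matrix genes were higher (background 9.96%) and 0 lower (4.33%), and the median log2 ratio was 0.71 over the matrix genes and 0.34 over all genes. Fn1 stood at 74.4 CPM (65.6 to 84) against 9.41 CPM (7.93 to 11.1) in other AT2 cells (7.91-fold, 6.42 to 9.77). Lama3 (36.6 against 10.9 CPM, 3.37-fold, 2.65 to 4.27), Lama5 (2.28-fold, 1.97 to 2.64), Fbln5 (2.12-fold, 1.66 to 2.68), Sparc (2.08-fold, 1.99 to 2.17) and Hspg2 (2.01-fold, 1.53 to 2.64) were higher as well, and Col1a1 and Col15a1 on at most 15 UMI per group. Col6a1 went the other way, with 16.4 against 32 CPM (0.514-fold, 0.383 to 0.677). After thinning to 4000 UMI, 19.7% of the Cldn4 cells and 2.66% of the others had an Fn1 UMI (40.5% and 6.52% unthinned), against 2.87% of Erythrocyte cells, the background group. All 7 AT1 markers were detected in both groups, with summed levels of 5426 and 2659 CPM, and AT2 markers stood at 62663 and 183349 CPM, and their part in the result was not tested. In the CD45-positive library (58 Cldn4 cells), Lama3 (2.36-fold, 1.38 to 3.86), Fbln5 (3.02-fold, 1.96 to 4.52), Sparc (2.22-fold, 2.02 to 2.43) and Timp3 (2.06-fold, 1.67 to 2.51) passed 2-fold. There 4 of 26 genes were higher (background 7.8%) and 3 lower (9.15%), namely Col6a1, Col3a1 and Col1a1, the last of which had been higher in the CD45-negative library. Fn1 was at 34.1 against 18.5 CPM (1.85-fold, 1.11 to 2.95), an interval below that of the CD45-negative library.

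**Figure D5:**
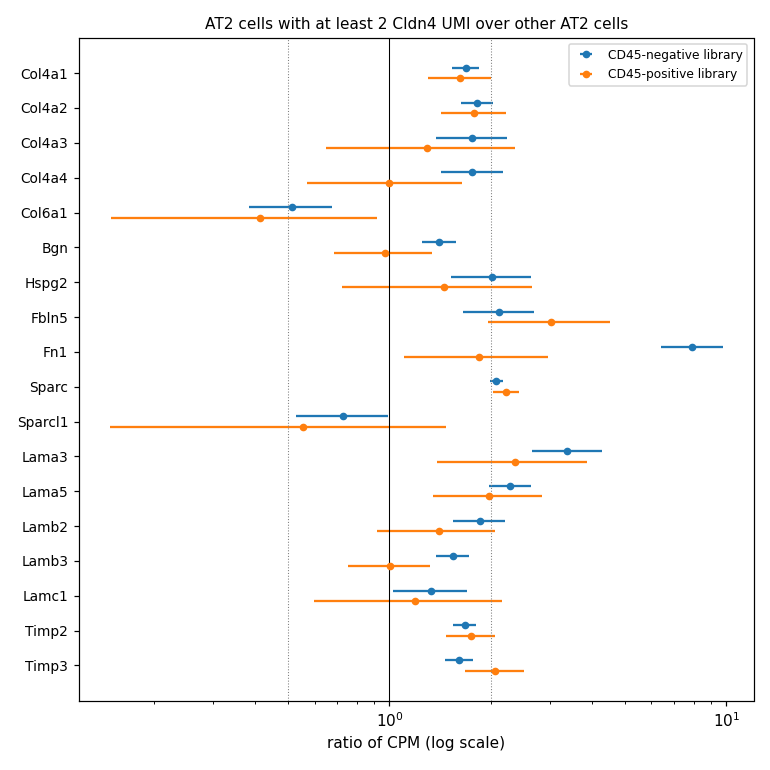
Ratio of CPM on a log axis for 18 matrix genes in AT2 cells with at least 2 Cldn4 UMI over other AT2 cells, with 95% counting intervals, in both libraries. Dotted lines mark 2-fold. Fn1 stands far to the right in the CD45-negative library at 7.91-fold, and Lama3, Fbln5 and Sparc lie above 2-fold in both libraries.

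Between the 2 libraries as wholes, 36 of the 43 matrix genes with at least 100 UMI in both together passed 2-fold towards the CD45-negative library (background 17.9%) and 0 towards the other (9.56%), with a median log2 ratio of 1.61 against 0.25 over all genes. The sort sets which cells each library holds, and fewer cells of a type and less RNA per cell cannot be told apart in this comparison. The ratio was 5.20-fold (5.0 to 5.41) for Dcn, 4.55-fold (4.06 to 5.11) for Timp1, 3.72-fold (3.41 to 4.06) for Col3a1 and 2.55-fold (2.45 to 2.66) for Col4a1. Exons of Fn1, Timp3 and Fbn1 overlap those of Apol7d, Syn3 and Gm9913 on the opposite strand. The 7 genes under 2-fold were Col4a2 (1.97-fold, 1.89 to 2.06), Nid1 (1.72-fold, 1.55 to 1.90), Col8a1, Lama2, Lamb3 (1.14-fold, 1.07 to 1.21), Fn1 (0.926-fold, 0.877 to 0.977) and Col15a1 (0.810-fold, 0.637 to 1.03).

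Fn1 and Timp2 were also present in macrophages, in cell groups chosen after the data were seen. In the CD45-positive library, Immune cells with at least 5 UMI of C1qa, C1qb and C1qc together held 609.8 CPM (555 to 669) of Fn1 and 507 CPM (457 to 561) of Timp2, and those chosen as alveolar macrophages by at least 10 UMI of their markers held 228 CPM (212 to 245) and 141 CPM (128 to 154). Of the Fn1 UMI of the C1q cells 46.1% lay in 5 of 180 cells, and the level without them was 342 CPM. T cells, chosen by at least 2 UMI of theirs, had 13 CPM (10.7 to 15.7) and 85.4 CPM (79.3 to 91.9).

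Further genes of the matrix machinery, from lists chosen by function, followed the members in part. Of 16 genes for collagen folding and processing with at least 100 UMI, 8 were highest in the Fibroblast class (13.3% of all genes), among them Pcolce, the enhancer of procollagen C-proteinase (1193 CPM, 5.87-fold, 4.96 to 7.01, above the next group), Crtap, a partner of prolyl hydroxylase (100.4 CPM, 2.92-fold, 2.28 to 3.78), and Serpinh1, the collagen chaperone (863 CPM, 1.68-fold, 1.53 to 1.85). Pcolce2 was highest in the Inmt-set cells (649 CPM, 1.71-fold, 1.49 to 1.97). Of 19 other matrix proteins, 8 were highest in the Fibroblast class (13.3% of all genes) and 7 in the Inmt-set cells (12.5%). Fras1, of the Fraser complex of basement membranes, reached 119.9 CPM, 91.9-fold (44.2 to 229.9), Efemp1, a fibulin, 1612 CPM, 12.7-fold (10.3 to 15.9) and Fmod, encoding fibromodulin, 33.9 CPM, 3.83-fold (1.71 to 10.7) in the Fibroblast class. Vcan, encoding versican, reached 13.2 CPM, 4.39-fold (1.09 to 25.2), in the Inmt-set cells. It had 53 UMI in the whole library, under the 100 UMI of the 19 genes counted. Of 17 matrix receptors, 5 were highest in the Fibroblast class (13.3% of all genes) and 4 in the AT1 class (11.7%), in which the collagen receptor chain Itga2 stood at 48.9 CPM, 5.75-fold (4.24 to 7.95). Bcam, a laminin receptor (1375 CPM, 3.13-fold, 2.99 to 3.29), and Itgb3 (18.7 CPM, 2.07-fold, 1.42 to 3.04) were highest in the Fibroblast class and Itgb4 (45.3 CPM, 2.15-fold, 1.51 to 3.06) in Ciliated cells. Of 14 matrix-degrading enzymes, 4 were highest in Immune cells (11.1% of all genes), with Mmp12, the macrophage elastase, at 849 CPM, 104-fold (77.8 to 142) and Ctsk, a collagen-degrading cathepsin, at 796 CPM, 11.5-fold (9.34 to 14.4). Mmp3 was highest in the Inmt-set cells (113 CPM, 16-fold, 10.7 to 24.2) and Adamts5 in the Fibroblast class (138 CPM, 5.18-fold, 3.71 to 7.45).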

How the data were processed

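UMI counts per gene and cell of 2 libraries, with a table of cell classes, were deposited by the authors. Cell Ranger 1.1.0 aligned 98-base reads to the mm10 transcriptome and collapsed UMI, per the submitters' processing notes, with 6000 cells loaded per channel. How the classes were made, which filters were applied to cells and whether strand was used in counting were stated in no source used here. Every cell was kept, with a minimum of 4646 UMI in the first and 2204 in the second library, and no doublets were removed, so mixed barcodes remain in the groups.

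Counts were summed per group and divided by the group's total UMI to give CPM, using pandas 2.3.3, scipy 1.17.1 and numpy 2.4.6 under Python 3.11.15, with matplotlib 3.10.9 for drawing. The calculation was tested on simulated data. A count of 0 allows a level of up to 3 counts of the total. Genes were ranked over groups of at least 20 cells from 100 UMI and compared in pairs from 20 UMI, with 2-fold as the limit. No p-values were computed, because each group came from 1 library. Shares of cells were compared after thinning each cell to 4000 UMI. The members, gene lists and subgroup limits were chosen with earlier results of these data known, so no list is independent evidence. Members with at least 500 UMI (28) were to be described by name, the others where their role called for it, and of each further list the 4 genes of highest ratio to the next group. Promoter windows are RefSeq sequence on GRCm38.p6, and gene positions are from GENCODE on GRCm38, the assembly of mm10. Alternatives changed the averaging, the denominator, the minimum UMI, the split limits, background subtraction, thinning and the library.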

Additional observations from a re-analysis of the deposited data

How the results depend on the processing

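No paired analysis was possible because each fraction was represented by 1 library. Of 188 alternative values of 17 summary results, 32 moved. A share was taken as moved beyond its counting interval, and a count by more than 1.5 times. Of 690 alternative values of 180 single-gene results, 153 moved. Both totals include alternatives that could not change a result, such as the split limits for the Cldn4 count and the minimum UMI for a library ratio. Among the 690, 27 values of ratios reported under 2-fold had the other sign, as had 5 ratios of at least 2-fold in the CD45-positive library, where the log2 ratio was -1.66 for Col1a1 in Cldn4 over other AT2 cells, -0.038 for Fn1 in Vwf over capillary cells, 0.65 and 0.57 for Lamb3 in the Inmt-set over Fibroblast-class and over remaining endothelial cells, and 0.67 for Fbln5 in the Pdgfrb-set over remaining endothelial cells. In all, 96 such ratios were repeated there. The causes were not tested. The number of matrix genes highest in the Inmt-set cells was 5, and 8 with the mean of per-cell CPM, 11 with the split at 6 and 5 UMI, 8 after thinning and 10 with the double-set cells merged in. For the remaining endothelial cells it was 1, and 0 after thinning, 2 with that merging and 0 without the 21 cells of no subtype marker. For the AT1 class it was 1, and 2 after thinning. Genes higher in the Pdgfrb-set than in the Inmt-set cells numbered 1, and 2 with a smaller or no minimum UMI, in the CD45-positive library and with the merging. Genes lower in the Inmt-set than in the remaining endothelial cells numbered 2, and 1 with the mean of per-cell CPM, in the CD45-positive library, with the merging or without the 21 cells, and 0 with either other split or thinning. Genes lower in the Pdgfrb-set than in the remaining endothelial cells numbered 6, and 3 with the split at 3 and 2 UMI, 3 with that at 6 and 5, 3 after thinning and 2 without the 21 cells. The count for Cldn4 cells was 8, and 14 with no minimum UMI, 16 with the Erythrocyte level subtracted and 4 in the CD45-positive library. The share of matrix UMI in the Inmt-set cells was 0.762%, and 0.818% by the mean of per-cell CPM, 0.804% without haemoglobin and mitochondrial genes, 0.867% with the split at 6 and 5, 0.717% with subtraction, 0.822% after thinning and 0.553% in the CD45-positive library. Merging the double-set cells and leaving out the 21 cells were chosen after seeing the data. The split groups restricted to cells with fewer than 3 endothelial-marker UMI were not run, since 7, 3 and 2 cells were left. Depth limits genes with few UMI, and no value can be set against a spread between animals.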

Other observations

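Lamb3, the laminin chain that was highest in AT2 cells, also had transcripts in B and T cells of the CD45-positive library, in cell groups chosen after the data were seen. Lamb3 stood at 78.6 CPM (64.5 to 94.8) in B cells, 56 CPM (51.1 to 61.2) in T cells and 61.2 CPM (33.5 to 103) in 79 neutrophils, 42.9% of the last in 5 cells, but at 25.5 CPM (14.8 to 40.7) in plasma cells, 7.95 CPM (5.19 to 11.6) in alveolar macrophages and 6.76 CPM (2.20 to 15.8) in C1q macrophages. AT2 cells of the same library had 93.8 CPM. Lama3, an α chain, did not share this pattern, at 0.235 CPM in T cells against 15.3 CPM in AT2 cells. Traf3ip3, on the opposite strand and next to Lamb3 on chromosome 1, stood at 54.4 CPM in T cells and 41.1 in B cells. It stood at 17.5 CPM in neutrophils, 18.9 in C1q macrophages and 7.26 in AT2 cells, where it was 0.108 CPM in the CD45-negative library. Of the other genes examined as neighbours, Hsd11b1 stood at 36.1 CPM in T cells, 10.8 in B cells and 4.37 in neutrophils. G0s2 stood at 94.9, 68.5 and 1466 CPM in the same cells and at 87.3 CPM in AT2 cells. No source used here says whether the counting used the strand, and the part of such neighbours in the Lamb3 count was not tested.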
